A study of Triticum aestivum with 6 samples.

Results

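Fructan, starch and sugar phosphate enzymes were followed in embryos of imbibed wheat grain through 9 probe sets of 6 genes, out of 771 genes that the array's annotation table pairs with probe sets. The genes were taken by name, as probe sets paired with exactly 1 gene whose symbol or synonym is 1-FEH, 6-FEH, amy1/BMY1, AGP-S, AGA.1 or GAPN. The embryos were of the bread wheat cultivar AC Domain (Triticum aestivum), taken from ripe grain that had been imbibed for 48 h. Until flowering all mother plants shared days of 22 °C and 16 h and nights of 18 °C and 8 h, and their grain then ripened at 13 °C or at 28 °C. Each temperature has 3 arrays of the Affymetrix wheat GeneChip, labelled as biological replicates. Nothing says which plants or grain lots these stand for, so p-values here cover only the variation among these 6 arrays, some of which may be technical.

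Fructans are chains of fructose built on sucrose that wheat stores as soluble reserves, and fructan exohydrolases release fructose from their ends. Starch is made from ADP-glucose, which ADP-glucose pyrophosphorylase forms from glucose 1-phosphate, and amylases break starch down during germination. The cereal embryo draws on its own sugars and on those arriving from the endosperm as it starts to grow. Within these processes 1-FEH and 6-FEH are fructan exohydrolases for beta-2,1 and beta-2,6 linkages, and amy1/BMY1 carries the names of both an alpha- and a beta-amylase. AGP-S is the small subunit of ADP-glucose pyrophosphorylase and AGA.1 the name of a wheat clone for its large subunit. GAPN is the non-phosphorylating glyceraldehyde-3-phosphate dehydrogenase, which makes NADPH in the cytosol.

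After seed development at 13 °C the fructan exohydrolase 1-FEH was 4.20-fold lower than at 28 °C and the brightest of 3 probe sets of 6-FEH 3.56-fold lower. A second 6-FEH probe set fell to a level at background, by 1.44 on the log2 scale counted from there, and the third was not called. For the large subunit of ADP-glucose pyrophosphorylase 1 of 2 probe sets was 2.35-fold higher, GAPN was 1.91-fold higher, and the small subunit did not pass the test. Neither rise passed when all arrays were scaled to their hybridisation or poly-A controls, while the fructan exohydrolase falls did. These scalings lower every difference by the same amount, 0.63 or 0.46, which weakens any rise and strengthens any fall. With 13 °C array 1 left out, both rises passed with the hybridisation scaling and neither with the poly-A scaling. In limma, with a Benjamini-Hochberg adjusted p under 0.05 over 61179 probe sets, 4 of the 9 were lower at 13 °C, 2 were higher, and the other 3 were not called. The share of all tested probe sets that passed was 33.5%, with 18.5% higher and 15.1% lower at 13 °C. The median difference of the 9 was -0.18 on the log2 scale against 0.062 over all tested probe sets. Among the 5 probe sets of the reserve-use genes (1-FEH, 6-FEH and amy1/BMY1), 4 fell and 0 rose, with a median of -1.83. One of these falls, that of amy1/BMY1, was between levels at background at both temperatures, and the others were all of the fructan exohydrolases. Among the 3 of the starch synthesis genes (AGP-S and AGA.1), 1 rose and 0 fell, with a median of 0.12. These counts cover few genes that were chosen with earlier results of these arrays known, so they describe the genes and do not test the pathways.

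All values are log2 RMA values, in which 1 unit is a 2-fold step, and differences are 13 °C minus 28 °C. RMA gives no detection call, so the highest mean among 23 control probe sets for transcripts that were not spiked in, 4.71, served as a guide to background, and 54.6% of the tested probe sets lay above it. Array medians lay between 4.99 and 5.04, and arrays correlated at 0.993 to 0.997 within and 0.953 to 0.964 between temperatures, across probe sets. The mean of the hybridisation controls was 0.63 higher at 13 °C, 11.53 ± 0.51 (SD, n = 3) beside 10.90 ± 0.13 (exact two-sided permutation p = 0.1, the smallest that 3 arrays against 3 allow), and 0.36 without 13 °C array 1. Poly-A controls differed by 0.46 (exact permutation p = 0.5), and by 0.06 without that array. Scaled to the hybridisation controls, 5.25% of all calls were higher at 13 °C, and 6.63% when scaled to the poly-A controls, against 55.1% for the deposited values. The wheat embryo markers checked were all above the background guide (9 of 9 probe sets of Em, WGA2 and Rab15). Their array means were 11.42 to 12.09 at 13 °C and 9.82 to 10.48 at 28 °C. Of these 9, 7 were higher at 13 °C, beside 18.5% of all tested probe sets, so their level was not constant between temperatures. Endosperm markers (gliadins, low molecular weight glutenins and waxy) were above the background guide on 2 of 8 probe sets, with array means of 4.08 to 4.20 and 3.98 to 4.11. Of the 8, 0 passed, beside 33.5% of all tested probe sets.

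The fructan exohydrolase 1-FEH (LOC543441, probe set Ta.199.1.S1_at) fell on its 1 probe set. Its values were 8.04, 8.59 and 8.54 on arrays 1 to 3 at 13 °C. At 28 °C they were 10.59, 10.21 and 10.58. All 13 °C arrays lay below all 28 °C arrays, with a gap of 1.63 between the nearest, far wider than the spread within either group, and array 1 was the lowest at 13 °C. The means were 8.39 ± 0.30 (SD, n = 3) and 10.46 ± 0.21, a difference of -2.07 ± 0.16 (SE; 95% interval -2.45 to -1.70, adjusted p = 1.7e-05), or 4.20-fold lower. Of all tested probe sets, 1.69% had a still lower difference. In bulk embryo RNA, fewer cells that express the gene and less RNA per cell cannot be told apart. The synonyms of this locus include 1-FEHw2, and the gene table lists 1-FEHw1 and 1-FEHw3 as separate loci with no probe set of their own in the annotation, so how far their transcripts add to this signal was not tested.

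The exohydrolase 6-FEH (LOC780575), which removes beta-2,6-linked fructose, was measured by 3 probe sets, of which 2 fell. On the brightest of them, Ta.30950.1.A1_x_at, the 13 °C arrays were at 6.63, 6.88 and 7.04 and the 28 °C arrays at 8.60, 8.82 and 8.61. The groups were apart by 1.56, and array 1 was again the lowest at 13 °C. The means of 6.85 ± 0.21 (SD, n = 3) and 8.68 ± 0.13 differed by -1.83 ± 0.12 (SE; adjusted p = 6.7e-06), or 3.56-fold. Its x suffix marks a probe set whose probes may also bind other transcripts.

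The second 6-FEH probe set, Ta.9641.1.A1_a_at, gave 4.08, 4.13 and 4.04 at 13 °C against 6.09, 6.21 and 6.13 at 28 °C. All 3 of its 13 °C values were below the background guide and all 3 of its 28 °C values above it. The difference was -2.06 ± 0.08 (SE, n = 3 per temperature; limma adjusted p = 4.1e-07), and -1.44 counted from the background guide. The third, TaAffx.93410.1.S1_at, was at 5.52, 5.42 and 5.65 against 5.46, 5.55 and 5.48. Here the groups overlapped and the difference was 0.027 ± 0.09 (SE, 95% interval -0.18 to 0.24; limma adjusted p = 0.86). That interval does not reach the falls of the other 6-FEH probe sets, so the probe sets paired with this gene disagree, and which of them reports the gene was not tested.

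The amylase probe set amy1/BMY1 (LOC543318, Ta.3.1.S1_at) was below the background guide in both groups. It was at 3.14, 3.32 and 3.32 at 13 °C and at 4.65, 3.79 and 4.34 at 28 °C. The 13 °C arrays were lower by at least 0.46, while the 28 °C arrays spread over a wider range than the gap. The means were 3.26 ± 0.11 (SD, n = 3) and 4.26 ± 0.44, and the difference passed at -0.997 ± 0.19 (SE; limma adjusted p = 0.0033). Counted from the background guide it was 0, and the call was lost with scaling to the poly-A controls (-1.45, SE 0.54). It was also lost with 13 °C arrays 1 and 2 left out together, at a similar difference of -0.93 and a larger SE of 0.37, where the lone 13 °C array is assumed to vary like those of 28 °C. The files do not settle which amylase the probe set measures.

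**Figure D1:**
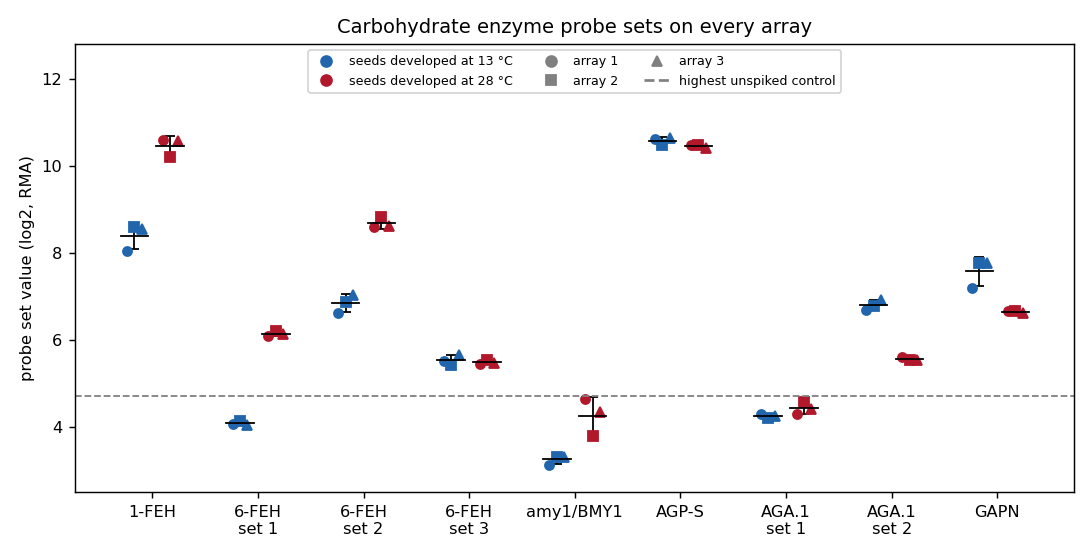
Log2 RMA value (vertical axis) of the 9 probe sets on each array; blue points are the 3 arrays of seeds developed at 13 °C, red points the 3 of 28 °C, black bars the mean ± SD, and the dashed line the highest unspiked control (4.71). Sets are numbered by their difference, so 6-FEH set 1 is the one that is below the line at 13 °C and set 2 the brightest; 1-FEH and these 6-FEH sets are lower at 13 °C, AGA.1 set 2 and GAPN are higher, and AGP-S overlaps.

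Among starch synthesis genes, AGP-S (LOC543299, Ta.242.1.S1_at), the small subunit, was bright at both temperatures. Its values were 10.61, 10.47 and 10.63 at 13 °C and 10.47, 10.48 and 10.41 at 28 °C. The highest 28 °C array lay within the 13 °C range, so the groups overlapped. The difference of 0.12 ± 0.09 (SE, n = 3 per temperature) did not pass (limma adjusted p = 0.36), and its 95% interval of -0.08 to 0.31 leaves room for changes between 0.946-fold and 1.24-fold in the deposited values. Scaling to the hybridisation or poly-A controls turned the sign, at -0.51 and -0.34, again without passing. The 1 other probe set of the same cluster, paired with no gene, was below the background guide in both groups (3.74 against 3.68).

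AGA.1 (LOC543278), named for the large subunit, rose on 1 of its 2 probe sets. On Ta.23665.1.S1_at the 13 °C arrays were at 6.70, 6.79 and 6.93 and the 28 °C arrays at 5.62, 5.55 and 5.55. The groups were apart by 1.08 and each was tight, at 6.80 ± 0.12 and 5.57 ± 0.04 (SD, n = 3). The difference was 1.23 ± 0.09 (SE; 95% interval 1.02 to 1.44, limma adjusted p = 1.2e-05), or 2.35-fold, and 1.96% of tested probe sets had a higher one. The rise did not pass with either control scaling, at 0.60 ± 0.33 (SE) for the hybridisation and 0.78 ± 0.54 for the poly-A controls. With 13 °C array 1 left out as well it passed with the hybridisation scaling, at 0.93 (adjusted p = 2.2e-04), and not with the poly-A scaling, at 1.23 (adjusted p = 0.11). The other probe set, Ta.23665.1.A1_at, was below the background guide on every array, between 4.21 and 4.29 at 13 °C and between 4.31 and 4.58 at 28 °C. Its difference of -0.18 ± 0.09 (SE; adjusted p = 0.19 in limma) did not pass in the deposited values, and was -0.56 (adjusted p = 0.045) with the hybridisation scaling and 13 °C array 1 left out.

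The sugar phosphate enzyme GAPN (Ta.511.1.S1_at) was higher at 13 °C. It was at 7.20, 7.77 and 7.78 at 13 °C and at 6.67, 6.66 and 6.63 at 28 °C. The 28 °C arrays were nearly identical, while 13 °C array 1 lay below the other two and still 0.53 above the highest 28 °C array. The means of 7.58 ± 0.33 (SD, n = 3) and 6.65 ± 0.02 differed by 0.93 ± 0.15 (SE; limma adjusted p = 0.0012). Scaled to the hybridisation controls the difference was 0.30, and scaled to the poly-A controls 0.48, and neither passed. Array 1 at 13 °C was also the array with the highest hybridisation controls (12.07, against 11.07 and 11.45 on the other 13 °C arrays), and without it GAPN passed with the hybridisation scaling, at 0.77 (adjusted p = 0.0033), and not with the poly-A scaling, at 1.06 (adjusted p = 0.24).

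The falls of 1-FEH and of the 2 lower 6-FEH probe sets passed under every alternative in which they could be measured, including both control scalings. With all arrays kept, these scalings lower the difference of every probe set by the same amount, 0.63 for the hybridisation and 0.46 for the poly-A controls. They make any fall larger and any rise smaller, so the larger falls are no separate evidence. For 1-FEH these scalings gave -2.70 and -2.53, and leaving out any single array gave -2.19 to -1.90. With the poly-A scaling and 13 °C array 1 left out it was -1.96. The RNA of the 13 °C arrays had wider gaps between 3-prime and 5-prime control probe sets. The excess was 0.84 in sucrose synthase and 0.90 in glucose-6-phosphate dehydrogenase, each with an exact permutation p = 0.1, the smallest possible. In GAPDH it was 0.43 (exact permutation p = 0.1), with the 3-prime probe set below the background guide at both temperatures (4.15 and 4.04). The gaps of sucrose synthase and glucose-6-phosphate dehydrogenase were widest on 13 °C array 2, at 7.91 and 3.76. The position of the 9 probe sets along their transcripts is not given in the sources used here, and the part of these gaps in the differences was not tested.

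**Figure D2:**
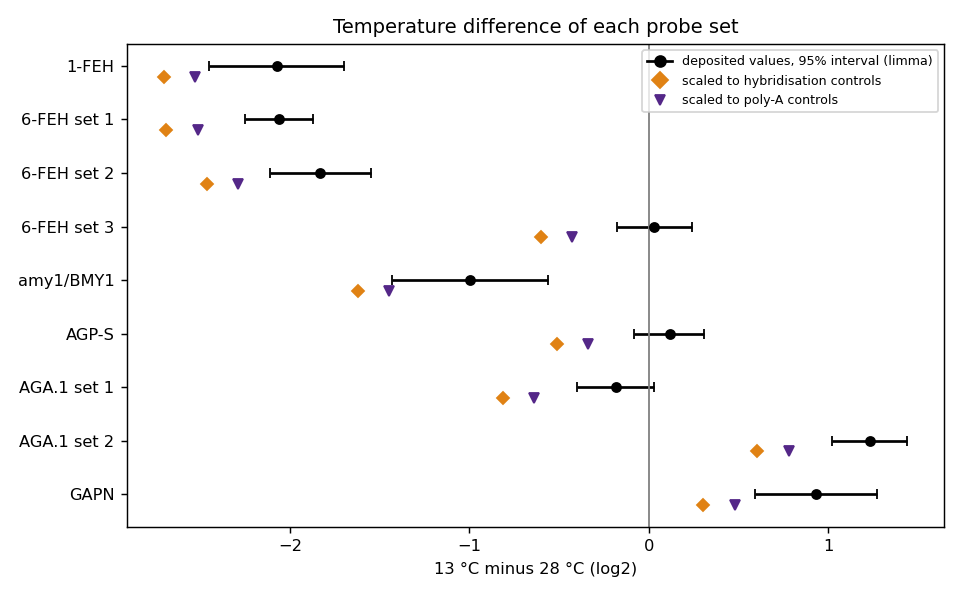
Difference between seeds developed at 13 °C and at 28 °C (log2, horizontal axis) for each of the 9 probe sets; black points and bars are limma estimates with 95% intervals on the deposited values, and diamonds and triangles the same difference after scaling to hybridisation or poly-A controls. The 3 fructan exohydrolase falls lie left of 0 under each scaling, the AGA.1 set 2 and GAPN points stay right of 0 but move towards it, and AGP-S changes side.

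Because the scaling of whole arrays decides the sign of AGP-S and the calls of AGA.1 and GAPN, reserve use and starch synthesis were also compared within arrays, as the log2 value of a reserve-use gene minus that of a starch synthesis gene on the same array. A scaling that adds the same log2 amount to every value of an array cancels in this difference. An adjustment that depends on the level of a probe set, such as the equalised distributions of RMA, need not cancel. Its size on an array has no meaning across probe sets, and only its change with temperature is read, as a sign of unequal change. The brightest probe set of each gene was used, which gave 6 pairs.

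Between 1-FEH and AGP-S the within-array difference was -2.57, -1.89 and -2.09 on the 13 °C arrays and 0.13, -0.27 and 0.16 on the 28 °C arrays. It was lower on every 13 °C array, with a shift of -2.19 on average, which is a 4.55-fold lower ratio of 1-FEH to AGP-S. Between 6-FEH and AGP-S it was -3.98, -3.59 and -3.59 against -1.86, -1.66 and -1.80, a shift of -1.95. The groups were again apart on every array. Against AGA.1 the shifts were larger, -3.30 for 1-FEH and -3.06 for 6-FEH. For 6-FEH and AGA.1 the arrays were at -0.07, 0.09 and 0.11 at 13 °C and at 2.98, 3.27 and 3.06 at 28 °C, with SDs of 0.10 and 0.15. The amylase probe set shifted by -1.11 against AGP-S and by -2.23 against AGA.1, with its own values below the background guide.

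The groups did not overlap in any of the 6 pairs. Of all tested probe sets taken singly, 44.3% had groups apart, and no such share was taken for pairs. Each pair had an exact two-sided permutation p = 0.1, the smallest that 3 arrays against 3 can give. It was also 0.1 after Benjamini-Hochberg adjustment over the 6. The pairs share genes and are not independent. With all probe sets of a gene averaged, the shifts against AGA.1 were smaller, at -2.60 for 1-FEH and -1.81 for 6-FEH, since the average takes in the probe sets that did not pass.

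**Figure D3:**
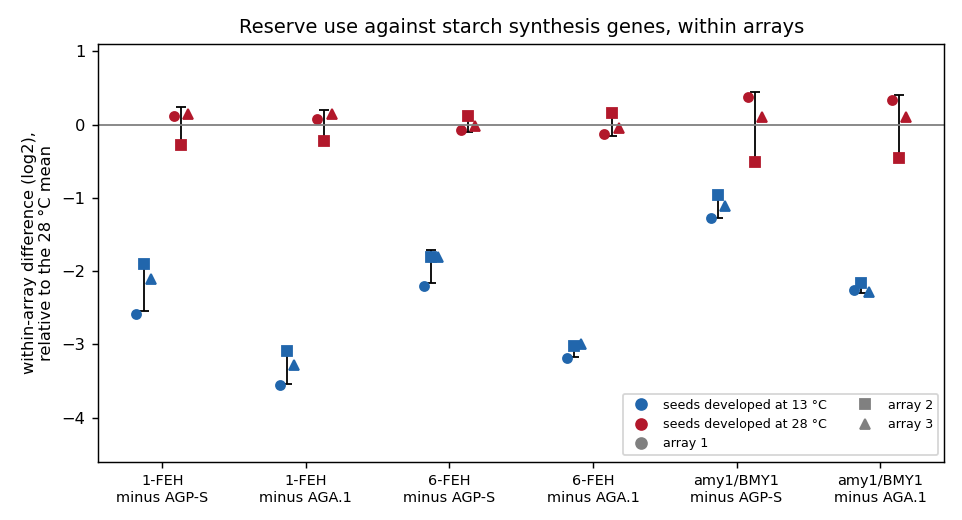
Within-array log2 difference between a reserve-use gene and a starch synthesis gene (vertical axis, with the mean of the 28 °C arrays set to 0) for the 6 pairs; points are arrays, blue for 13 °C and red for 28 °C, and bars are the mean ± SD of 3 arrays. All blue points lie below all red points in each pair, by 1.11 (amy1/BMY1 against AGP-S) to 3.30 (1-FEH against AGA.1) on average.

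Set among all tested probe sets, 1-FEH and 2 of the 3 probe sets of 6-FEH stood in the lower tail, and GAPN and 1 of the 2 of AGA.1 in the upper. The third 6-FEH probe set, with 43.9% of all tested probe sets lower, and the dim AGA.1 probe set, with 21.3% lower, did not. Of the 9 probe sets, 4 passed and differed at least 2-fold, where 9.29% of all tested probe sets did. Groups were apart on 7 of the 9, against 44.3% of all tested probe sets. For the brightest 6-FEH probe set 2.14% of all tested probe sets had a lower difference, and for GAPN 4.44% had a higher one.

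**Figure D4:**
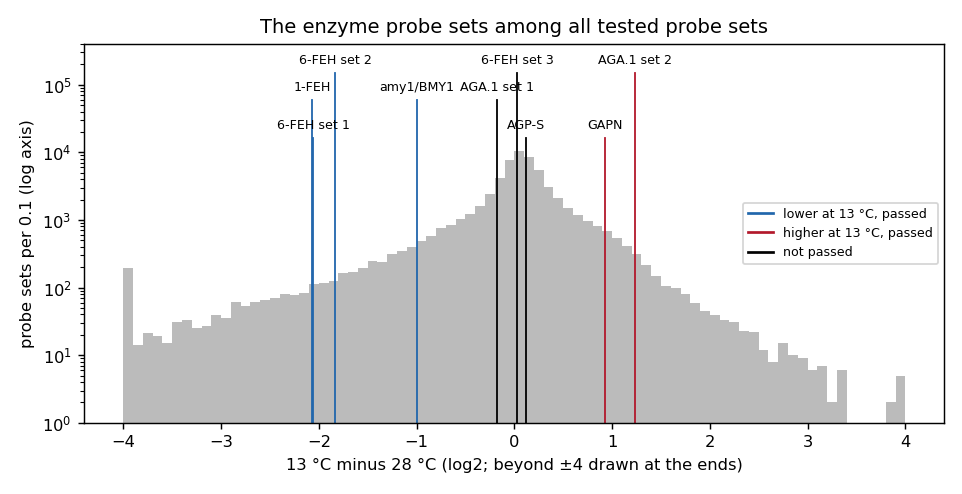
Number of the 61179 tested probe sets (vertical log axis) by their difference between 13 °C and 28 °C (log2, horizontal axis, with values beyond the ends drawn at the ends); vertical lines mark the 9 enzyme probe sets, blue for lower, red for higher and black for not passed. The 1-FEH line at -2.07 and the AGA.1 set 2 line at 1.23 lie in the tails, and the AGP-S line at 0.12 near the centre.

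Other carbohydrate genes named on the array were few and mostly dim. Without the 6 genes above, 9 probe sets of 7 genes were matched. Of these 1 rose and 0 fell, where 18.5% of all tested probe sets were higher and 15.1% lower, the median difference was -0.10, and 3 were above the background guide. The probe set that rose was PFK, the ATP-dependent phosphofructokinase of glycolysis, at 3.97, 4.71 and 4.34 against 3.75, 3.15 and 3.13. The difference was 0.996 ± 0.21 (SE; limma adjusted p = 0.0059), with both means below the background guide, so that it was 0 when counted from there. Pgk-1, phosphoglycerate kinase, was the brightest of them at 9.03 ± 0.10 (SD, n = 3) against 8.77 ± 0.14. All its 13 °C arrays were above all its 28 °C arrays, but the difference of 0.27 ± 0.10 (SE) did not pass (limma adjusted p = 0.083). The probe sets of FBP, fructose-1,6-bisphosphatase, differed by 0.12 and -0.17, that of PRK, the phosphoribulokinase of photosynthetic carbon fixation, by -0.18, and none passed.

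The granule-bound starch synthase GBSS, the waxy enzyme of amylose synthesis, was below the background guide on all arrays and differed by -0.12 (limma adjusted p = 0.38). IVR1, a name for an invertase whose locus also carries atpA, the name of an ATP synthase subunit, differed by -0.0013 at a similar level. The full lists include the genes described above, and those for starch and fructan breakdown hold no others. Starch synthesis had 1 of 4 probe sets higher and 0 lower, and sugar phosphates 2 of 8 higher and 0 lower. Starch breakdown had 0 of 1 higher and 1 lower, and fructan breakdown 0 of 4 higher and 3 lower. The breakdown counts thus repeat the results of amy1/BMY1, 1-FEH and 6-FEH and add nothing to them. Beside the 18.5% higher and 15.1% lower of all tested probe sets, the counts of higher probe sets for starch synthesis and sugar phosphates are close to the background. The only sucrose enzyme, IVR1, did not pass. The lists for fructan synthesis and sugar transport matched no probe set, so the balance of fructan synthesis and breakdown was not analysed here.

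**Figure D5:**
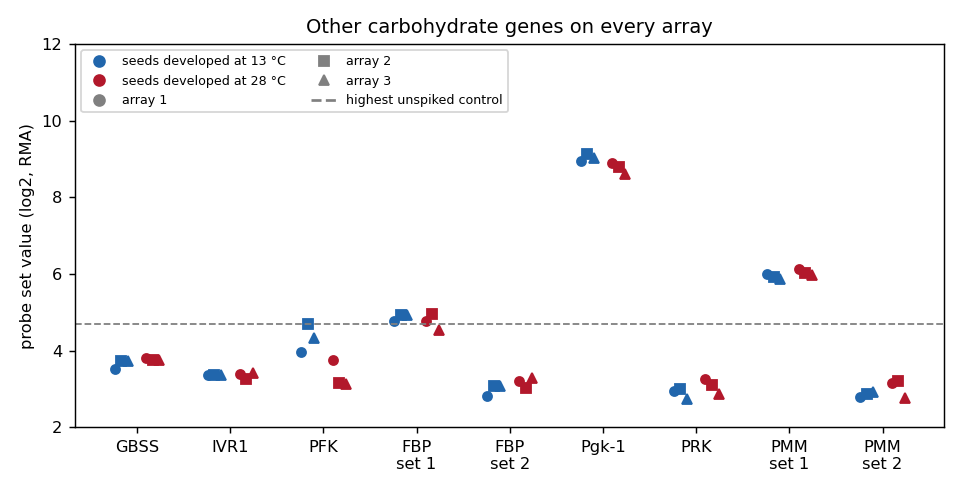
Log2 RMA value (vertical axis) of the 9 probe sets of other carbohydrate genes on each array, blue for seeds developed at 13 °C and red for 28 °C, with the highest unspiked control (4.71) as a dashed line. Pgk-1 stands highest, near 9 at both temperatures, and the PFK points lie below the line or, on 1 array, on it.

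Among 115 other named probe sets above the background guide, the ones whose values ran most like those of 1-FEH over the 6 arrays were a probe set each of the histone wcH2B-8 (Pearson r = 0.998), the profilin PRO1 (0.995), an actin-binding protein, and COMT1 (0.995), a methyltransferase of lignin synthesis. All these arrays fall into the 2 temperature groups, so a high r mostly records a fall at 13 °C. The COMT1 probe set had means of 7.86 ± 0.18 and 9.13 ± 0.07 (SD, n = 3) and differed by -1.27 ± 0.11 (SE; limma adjusted p = 2.6e-05). The wcH2B-8 probe set differed by -3.56 and that of PRO1 by -1.14, so the sizes of the differences were not alike.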

How the data were processed

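The values are log2 RMA summaries per probe set on 6 arrays, as deposited; the submitters' processing notes name RMA but no version or software. RMA equalises the arrays' distributions, so total mRNA cannot be read. No batch was named. Of 61290 probe sets, 111 controls were left out and 61179 tested. The annotation table paired 1273 with 1 gene, and 1272 were matched by gene ID to the RefSeq table of IWGSC CS RefSeq v2.1, used for names only; the GAPN probe set was named from the annotation alone. The fit was limma 3.58.1 (R 4.3.3; lmFit, eBayes, no covariate, two-sided, Benjamini-Hochberg over all tested probe sets, threshold 0.05), tested on simulated data. Exact permutation tests used Python 3.11.15, numpy 2.4.6 and scipy 1.17.1. Same-numbered arrays did not deviate together (r of 0.012 to 0.044), so replicate numbers were not used as pairs. Named were all member probe sets, up to 4 other genes per list by p, and the 3 probe sets most like 1-FEH (the member with the largest difference in the deposited values). Members and lists were chosen with earlier results of these data known; Pgk-1, PRK and PMM joined after the array's names were seen. The number of arrays limits precision. No sequences were used.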

Additional observations from a re-analysis of the deposited data

How the results depend on the processing

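Of the 9 probe sets, 6 passed with the deposited values, and 5 or 6 did under median centring, the background filter (which leaves 7 of the 9), the trend and robust prior, array weights, any single array left out, and 13 °C arrays 1 and 2 left out together, where the spread comes from the 28 °C arrays. With the replicate number as a block 6 passed again, and the block changed no call of the 9; 20226 of all probe sets passed under it against 20517. Scaled to the hybridisation controls, 0 rose instead of 2, and all calls numbered 12469, of which 654 were higher against 11304. Scaled to the poly-A controls, 3 passed and 0 rose, and all calls numbered 3002, with 199 higher and 2803 lower against 9213, as the SE of each difference grew to 0.54. Both scalings were also run with 13 °C array 1 left out, chosen after its control values were seen. For the hybridisation controls 7 of the 9 then passed, 2 higher and 5 lower. Of all probe sets 16497 passed there, 3256 higher and 13241 lower. For the poly-A controls 3073 of all probe sets passed, 817 higher and 2256 lower, with 3 of the 9 passing and 0 higher. Without probe sets that carry an x, s or a suffix, 2 of the 9 fell and 5763 of all probe sets did, since those with a suffix are not tested. The third 6-FEH probe set, at 0.027, turned to -0.60 and -0.43 with the hybridisation and poly-A scaling, to -0.32 and -0.028 with these and no 13 °C array 1, and ranged from -0.034 to 0.082 with single arrays left out. The dim AGA.1 probe set was lower, at -0.56, with the hybridisation scaling and no 13 °C array 1. AGP-S turned to -0.51 and -0.34, and to -0.26 with the hybridisation scaling and no 13 °C array 1. With the mean of all probe sets of a gene, the within-array shifts were -2.60 (1-FEH against AGA.1), -1.40 (6-FEH against AGP-S), -1.81 (6-FEH against AGA.1) and -1.52 (amy1/BMY1 against AGA.1).

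Signal over background limits amy1/BMY1, the dim AGA.1 probe set and the 13 °C level of the second 6-FEH probe set.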

Other observations

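Affymetrix control probe sets for 2 further carbohydrate enzymes lay outside the fit and are given as values. Sucrose synthase, which splits sucrose for use in the cell, was at 12.82, 12.76 and 12.77 at 13 °C against 13.01, 13.23 and 13.12 at 28 °C on its 3-prime probe set, a difference of -0.34. The difference was -0.64 on the middle and -1.17 on the 5-prime probe set, so its size depended on where along the transcript it was read. Glucose-6-phosphate dehydrogenase, which opens the oxidative pentose phosphate pathway, was likewise lower at 13 °C on all its probe sets, by -0.48 (3-prime), -0.90 (middle) and -1.38 (5-prime). In each of these 6 probe sets the groups did not overlap (exact two-sided permutation p = 0.1, the smallest possible), where 44.3% of all tested probe sets had groups apart. The 3-prime and 5-prime sets among them also give the wider gaps at 13 °C described above. How much of these differences reflects those gaps and how much the level of the enzymes' transcripts was not tested. The control probe sets of the phosphorylating GAPDH overlapped between temperatures, with differences from -0.32 to 0.11.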
